A study of Homo sapiens with 28 samples.

Results

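LNCaP is an established line grown from a metastasis of human prostate cancer. In LNCaP cells under ER stress, the comparison described here set kinase inhibition of PERK against siRNA knockdown of its message. Its members were chosen by treatment label: 4 libraries of cells that received tunicamycin and the PERK inhibitor against 8 libraries of cells that received tunicamycin and an siRNA against PERK, which makes 12 of the 28 libraries in the series. The inhibitor group (TM PERKi siCtrl) carried a non-targeting siRNA and received 2.5 µg/mL tunicamycin with 100 nM GSK2606414. The siRNA groups, TM siPERK-1 and TM siPERK-3 with 4 libraries each, carried 1 of 2 oligos against EIF2AK3, the gene of PERK, and received the same dose of tunicamycin without inhibitor. A further 2 groups of 4 served as baselines, namely cells with the non-targeting siRNA and tunicamycin (TM siCtrl) and cells with the non-targeting siRNA and solvent (DMSO siCtrl). Treatment lasted 18 h and began 2 days after reverse transfection in every group. The oligo of TM siPERK-3 is named oligo 2 in its treatment label. Per the series' design text, the 4 libraries of a group came from independent experiments, here with 1 cell line, so the replicate spread covers repeated cultures and no second line or donor. Because the inhibitor group and the siRNA groups also differed in which siRNA they carried, several explanations cannot be told apart in this contrast. They are effects of the compound or an oligo outside PERK, incomplete knockdown, and the difference between a silent and a depleted kinase.

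PERK is a kinase in the membrane of the endoplasmic reticulum (ER) that senses unfolded protein and phosphorylates the translation factor eIF2α. That slows translation in general and favours the making of ATF4, which with its target CHOP (gene DDIT3) switches on genes of amino acid supply, redox balance and cell death, and GADD34 (gene PPP1R15A) removes the phosphate again. The other sensors, IRE1 with its target XBP1, and ATF6, raise chaperones and the machinery that degrades or exports ER proteins. An inhibitor of the kinase leaves the PERK protein in place, whereas an siRNA lowers its message. Tunicamycin blocks N-glycosylation and so fills the ER with unfolded protein.

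Over 25369 genes, libraries totalled 11580800 to 15593975 counts with the inhibitor. The totals were 13253835 to 16789370 for siPERK-1, 12251524 to 12606231 for siPERK-3 and 14052883 to 17253801 for TM siCtrl. Levels below are CPM, counts scaled to library size by TMM, which serve to compare 1 gene between groups and not different genes with each other, since they are not corrected for gene length. In groups of 4 each value is listed by replicate, and for the 8 siPERK libraries the lowest, highest and median are given. For the 10 highest, 10 lowest and up to 3 members of each list, the naming rule required no overlap of inhibitor and siPERK values. Differences are log2 values ± SE from 1 edgeR quasi-likelihood fit over all 28 libraries, inhibitor minus the mean of the PERK siRNA groups unless another pair is named, and a gene was called at a Benjamini-Hochberg adjusted p under 0.05 over the 14314 genes with enough counts. Replicate 4 stood apart from replicates 1 to 3 in several groups, and of 31 single libraries that lay far from the other 3 of their group among the genes described, 24 were replicate 4. Leaving replicate 4 out of all groups is therefore given beside the main counts. The luminal prostate markers named for these cells were all tested (10 of 10), while all 4 basal and all 6 leukocyte markers stayed under 1 CPM in the 16 tunicamycin-treated libraries of the groups above.

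Promoters of 4 genes are shown because they carry letters that stress-induced factors are known to bind. HSPA5 and CRELD2 share 1 such element, and HSPA5 was called in this comparison while CRELD2 was not. HERPUD1 and FGF21 share another, and both were higher with the inhibitor. The sequences are those of RefSeq on build GRCh38.p14 and run from 250 bases before to 50 bases after the start of the gene, written 5′ to 3′ on the strand of the gene. Capitals mark the fixed letters of a match on either strand. HSPA5 encodes the chaperone BiP (chr9:125241294-125241593, minus strand), CRELD2 an ER folding protein (chr22:49918384-49918683, plus strand), HERPUD1 a membrane protein of ER-associated degradation (chr16:56931892-56932191, plus strand), and FGF21 a stress-induced hormone (chr19:48755274-48755573, plus strand).
HSPA5: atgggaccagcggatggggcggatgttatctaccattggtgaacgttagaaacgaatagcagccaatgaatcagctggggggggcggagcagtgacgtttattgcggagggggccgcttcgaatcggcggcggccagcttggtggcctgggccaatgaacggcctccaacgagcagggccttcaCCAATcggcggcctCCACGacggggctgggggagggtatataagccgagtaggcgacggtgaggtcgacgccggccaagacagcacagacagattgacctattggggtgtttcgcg
CRELD2: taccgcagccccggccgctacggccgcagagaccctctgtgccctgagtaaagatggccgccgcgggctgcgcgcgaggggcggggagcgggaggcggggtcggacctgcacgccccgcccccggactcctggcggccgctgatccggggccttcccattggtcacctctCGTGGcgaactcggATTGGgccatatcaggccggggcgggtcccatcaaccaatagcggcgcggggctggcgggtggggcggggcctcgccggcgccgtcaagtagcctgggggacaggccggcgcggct
HERPUD1: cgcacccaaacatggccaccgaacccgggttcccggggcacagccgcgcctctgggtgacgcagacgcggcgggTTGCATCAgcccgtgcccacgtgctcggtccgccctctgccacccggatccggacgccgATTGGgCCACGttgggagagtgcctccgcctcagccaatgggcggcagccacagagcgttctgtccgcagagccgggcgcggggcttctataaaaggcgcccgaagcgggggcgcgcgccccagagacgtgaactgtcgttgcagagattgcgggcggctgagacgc
FGF21: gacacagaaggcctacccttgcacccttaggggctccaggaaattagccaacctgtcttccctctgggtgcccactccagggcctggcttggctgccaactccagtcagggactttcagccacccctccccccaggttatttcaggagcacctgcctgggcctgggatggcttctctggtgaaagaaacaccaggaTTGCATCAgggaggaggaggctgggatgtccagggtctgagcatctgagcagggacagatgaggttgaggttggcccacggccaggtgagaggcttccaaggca
The ER stress response element, CCAAT and CCACG separated by 9 bases, was present in the promoters of HSPA5 and CRELD2 and in 22 of all 27305 RefSeq promoters of this length (0.0806%). Its relative, ATTGG and CCACG separated by 1 base, was present in HERPUD1 and in 15 of all promoters (0.0549%). TGATGCAA, the composite site of C/EBP and ATF proteins such as CHOP and ATF4, was present in HERPUD1 and FGF21 and in 252 of all promoters (0.923%). None of the capitalised matches overlapped another. A match is a description of these letters and not a measured binding site, and 94 of the 117 genes described had a promoter in the RefSeq table.

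The inhibitor and the PERK siRNAs differed at a large share of genes under the same dose of tunicamycin, mostly by small amounts. Most tested targets of ATF4 and CHOP, genes of amino acid synthesis and p53 targets were higher with the inhibitor, and ER folding and export genes were more often higher than lower. Androgen-regulated genes and genes of fatty acid and cholesterol synthesis were mostly lower with it. In all, 7428 genes were called, 51.9% of those tested. With the inhibitor 3699 were higher (25.8%) and 3729 lower (26.1%), and the median difference over all genes was -0.005. The counts of each gene list below are to be read beside these shares. By at least 2-fold, 192 genes (1.34%) were higher and 277 genes (1.94%) lower. Without replicate 4 of any group 7197 genes were called, 3573 higher and 3624 lower.

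The mean of the oligo groups hides differences between the oligos. Between TM siPERK-1 and TM siPERK-3, 677 genes (4.73%) were called, 321 higher (2.24%) and 356 lower (2.49%) in TM siPERK-1. A stricter call required the inhibitor to differ from the mean and from each oligo singly in 1 direction, and 2713 genes (19%) were then higher and 2702 genes (18.9%) lower with the inhibitor. All 4 inhibitor libraries lay above all 8 siPERK libraries for 2366 genes (16.5%) and below them for 2283 genes (15.9%). Against TM siCtrl, the inhibitor group had 5112 called genes (35.7%), 2601 higher (18.2%) and 2511 lower (17.5%). The PERK siRNAs had 4496 against the same libraries (31.4%), 2238 higher (15.6%) and 2258 lower (15.8%). These last 2 comparisons share their TM siCtrl libraries, so each is given only as its own values for the genes below.

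**Figure D1:**
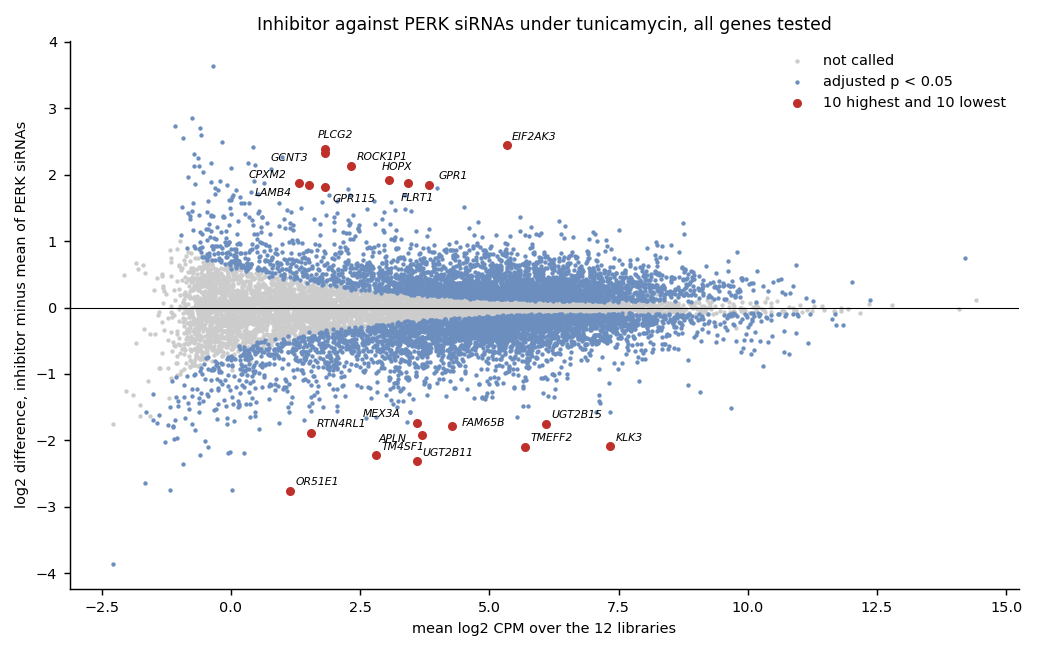
Log2 difference, inhibitor minus the mean of the PERK siRNA groups (vertical axis), against the mean log2 CPM over the 12 libraries (horizontal axis) for the 14314 genes tested. Blue points were called at an adjusted p under 0.05, grey points were not, and red points are the 10 highest and 10 lowest genes of the naming rule; called genes lie on both sides of 0 over most of the range of levels.

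EIF2AK3 (hg19 chr2:88856259-88927094, minus strand) is the target of the oligos, so its levels check the labels and are no finding of this contrast. It stood at 120.2, 124, 125 and 130.5 CPM in the inhibitor libraries, 23, 30.4, 21.4 and 23.6 CPM in TM siPERK-1, 19.97, 21.9, 19.7 and 24.3 CPM in TM siPERK-3 and 80.0, 95.2, 90.7 and 91 CPM in TM siCtrl. Every siPERK library lay below every TM siCtrl library, and every inhibitor library above them. In DMSO siCtrl the gene stood at 29.97, 29.2, 30.7 and 30.9 CPM. The siRNAs thus left part of the message under tunicamycin, and the PERK protein was not measured. The exons of EIF2AK3 overlap those of LOC101928371, and without knowledge of strand use in counting their reads cannot be told apart.

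The message of ATF4 itself was not called in the fit over all 28 libraries, while the genes of CHOP, ATF3 and GADD34 were higher with the inhibitor. ATF4 (hg19 chr22:39916564-39918691), the central transcription factor of the pathway, stood at 1462, 1471, 1385 and 1344 CPM in the inhibitor libraries, 1412, 1424, 1461 and 1363 CPM in TM siPERK-1 and 1111, 1190, 1198 and 1134 CPM in TM siPERK-3. The inhibitor libraries overlapped those of TM siPERK-1 and lay above those of TM siPERK-3. Every TM siPERK-1 library also lay above every TM siPERK-3 library, though the oligos were not called apart. The difference of 0.14 ± 0.13, whose SE rests on the spread in all 28 libraries, was not called (adjusted p = 0.354). It was called when only the groups compared were fitted (0.14, adjusted p = 0.00102) and without replicate 4 of any group (0.15, adjusted p = 0.0128). ATF4 is controlled mainly at translation, which counts of its message do not measure.

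DDIT3 (hg19 chr12:57910371-57914300, minus strand), the gene of the pro-death factor CHOP, stood at 681, 743, 726 and 777 CPM in the inhibitor libraries, against 287 to 389.9 CPM (median 336) over the 8 siPERK libraries. The groups did not overlap, and the difference was 1.11 ± 0.12 (adjusted p = 5.23e-08). Against TM siCtrl, where DDIT3 stood at 259, 273, 309 and 339 CPM, it was higher with the inhibitor by 1.31 ± 0.14 and not called with the siRNAs at 0.20 ± 0.12. ATF3 (hg19 chr1:212738676-212794119), a stress-induced factor downstream of ATF4, stood at 779, 803, 852 and 701 CPM in the inhibitor libraries and 234 to 386 CPM (median 345) in the siPERK libraries. Again no values overlapped, with a difference of 1.28 ± 0.11 (adjusted p = 3.19e-09). PPP1R15A, the gene of GADD34, stood at 41, 37.3, 42.6 and 37.1 CPM in the inhibitor libraries and 16.8 to 23.7 CPM (median 21.4) in the siPERK libraries. It was higher with the inhibitor by 0.93 ± 0.07, being raised against TM siCtrl with the inhibitor (0.67 ± 0.08) and lowered with the siRNAs (-0.25 ± 0.08). DDIT3 shares exon positions with MARS.

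**Figure D2:**
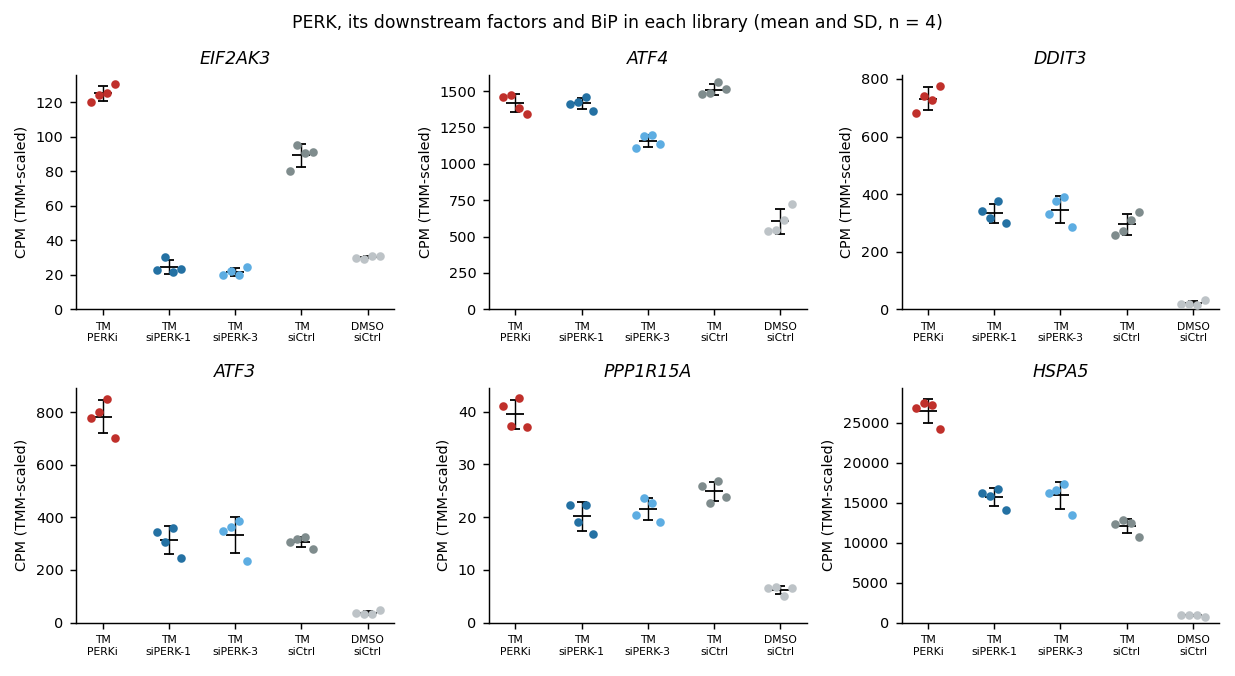
TMM-scaled CPM (vertical axes, from 0) of EIF2AK3, ATF4, DDIT3, ATF3, PPP1R15A and HSPA5 in each library of 5 groups; points are libraries, bars the mean and SD of 4. The inhibitor group lies above both siPERK groups for all of these genes but ATF4, which overlaps TM siPERK-1.

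Of 19 genes of the PERK arm and of eIF2 control, 10 were higher and 7 lower (median 0.14), and 1 of the 10 was EIF2AK3. NCK1, an adaptor known to bind the phosphatase that acts on eIF2, was at 56.9 to 67.1 CPM with the inhibitor and 37.2 to 46.1 CPM with the siRNAs (0.54 ± 0.05). PPP1R15B, the constitutive partner of that phosphatase, was higher by 0.46 and DNAJC3, an inhibitor of PERK, by 0.48. Of the other eIF2 kinases, EIF2AK2 was higher by 0.41 ± 0.05, EIF2AK4 differed by -0.37 and EIF2AK1 by -0.13, each of them called.

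The targets of ATF4 and CHOP were mostly higher with the inhibitor. Of 33 tested, 25 were higher and 3 lower, with a median of 0.54, and 21 of the 25 passed against each oligo singly. The list holds ATF3, DDIT3 and PPP1R15A, described above. FGF21, whose promoter is printed above, was the furthest apart. It stood at 5.03, 3.74, 3.27 and 4.71 CPM in the inhibitor libraries and 0.773 to 1.99 CPM (median 1.55) in the siPERK libraries (1.44 ± 0.19, adjusted p = 7.32e-08). These levels were near the lower limit of what was tested.

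Against TM siCtrl, 15 of the 33 were higher and 5 lower with the inhibitor (median 0.21), whereas 1 was higher and 17 lower with the siRNAs (median -0.25). FAM129A, a stress-induced regulator of translation factors, stood at 249, 261, 248 and 231 CPM with the inhibitor and 91.2 to 142 CPM (median 127) with the siRNAs (1.02 ± 0.14). Its values did not overlap, and it was lower than TM siCtrl with the siRNAs (-0.62 ± 0.14) and not called with the inhibitor (0.40 ± 0.16). CHAC1, which degrades glutathione, had the same pattern, with 131 to 145 CPM in the inhibitor libraries and 67.9 to 103 CPM in the siPERK libraries (0.79 ± 0.19), called against TM siCtrl for the siRNAs (-0.70 ± 0.19) and not for the inhibitor (0.09 ± 0.22). TRIB3, a pseudokinase that feeds back on ATF4, differed less (0.37 ± 0.11, adjusted p = 0.0065).

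The 3 lower genes of that list were GDF15 (-0.70 ± 0.11), a secreted stress cytokine, the death receptor gene TNFRSF10A (-0.39) and the lipoprotein receptor gene VLDLR (-0.24). GDF15 stood at 1314, 1406, 1222 and 1201 CPM with the inhibitor and 1826 to 2318 CPM (median 2107) with the siRNAs, with no overlap, and at 2487, 2092, 2031 and 1863 CPM in TM siCtrl. The other death receptor of the list, TNFRSF10B, was higher by 0.73.

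Genes that make amino acids and charge tRNAs leaned the same way. Of 29 enzymes of amino acid synthesis and one-carbon metabolism, 18 were higher and 6 lower (median 0.24). BCAT1, a branched-chain aminotransferase (1.11 ± 0.23, with 1.74 to 2.32 CPM with the inhibitor and 0.423 to 1.36 CPM with the siRNAs), CTH of cysteine synthesis (1.09 ± 0.07), MTHFD2 of mitochondrial one-carbon metabolism (0.94 ± 0.06) and the aminotransferase gene GOT1 (0.90 ± 0.06) were the furthest apart. BCAT1 had only 5 to 17 counts in the siPERK libraries. ASNS, asparagine synthetase, differed by 0.44 ± 0.07. The lower members included GLUL, glutamine synthetase (-0.59), and the mitochondrial aminotransferase gene GOT2 (-0.45). MTHFD2 stood at 556, 594, 549.5 and 565 CPM in the inhibitor libraries, 262, 282, 271 and 248 CPM in TM siPERK-1 and 324, 344, 351 and 290.5 CPM in TM siPERK-3, and the oligos themselves differed (-0.30 ± 0.08, siPERK-1 minus siPERK-3).

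Of 23 cytosolic aminoacyl-tRNA synthetase genes, 14 were higher and 4 lower (median 0.21). WARS (0.55 ± 0.04), GARS (0.44 ± 0.08) and YARS (0.38 ± 0.05), which charge tryptophan, glycine and tyrosine tRNAs, were each higher. They were named by the rule that required no overlap between the groups. YARS overlaps S100PBP. Amino acid transporters were split, with 8 higher and 7 lower of 23 (median 0.08), beside 25.8% higher and 26.1% lower of all genes tested. SLC7A11, the cystine importer, stood at 1311, 1329, 1334 and 1280 CPM in the inhibitor libraries and 652 to 840.2 CPM (median 726) in the siPERK libraries (0.84 ± 0.15), while the glutamate carrier SLC1A1 (-0.88 ± 0.15) and the cationic amino acid exchanger SLC7A6 (-0.50 ± 0.05) were lower. SLC7A11 and SLC7A6 each overlap another gene on the other strand.

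ER folding genes were more often higher than lower with the inhibitor, and several well-known chaperones were not called. Of 32 ER chaperones and folding enzymes, 21 were higher and 1, CNPY2 (-0.35), was lower, with a median of 0.15, and 14 of the 21 passed against each oligo singly. Over the alternatives 15 to 23 were higher, the fewest without TM PERKi siCtrl replicate 3, and 1 to 3 lower, the most without TM siPERK-3 replicate 4. The count lower was also 2 without replicate 1 or 2 of TM PERKi siCtrl, replicate 2 or 4 of TM siPERK-1 or replicate 1 of TM siPERK-3. HSPA5 (hg19 chr9:127997127-128003666, minus strand), the gene of BiP, stood at 26900, 27550, 27300 and 24220 CPM in the inhibitor libraries, against 13490 to 17410 CPM (median 16200) in the siPERK libraries. No values overlapped, which the naming rule required, and the difference was 0.74 ± 0.07 (adjusted p = 8.37e-09). It was above TM siCtrl (12280, 12860, 12420 and 10760 CPM) with the inhibitor by 1.13 ± 0.09 and with the siRNAs by 0.39 ± 0.08.

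FKBP14, a prolyl isomerase of collagen folding, was the furthest apart of the list, at 135, 139.5, 158 and 131 CPM with the inhibitor and 50.3 to 79.7 CPM (median 66.2) with the siRNAs (1.11 ± 0.06). It was raised against TM siCtrl with the inhibitor (1.01 ± 0.07) and not called with the siRNAs (-0.10 ± 0.07). DNAJB9, a co-chaperone that also restrains IRE1, stood at 274 to 293 CPM with the inhibitor and 176 to 192 CPM with the siRNAs (0.66 ± 0.05), and it overlaps THAP5. SDF2L1, a partner of BiP, differed by 0.51 ± 0.06.

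By contrast PDIA4, HSP90B1 and CRELD2, which tunicamycin also induces, were not called in this comparison. PDIA4, a disulfide isomerase, stood at 4819, 5105, 5510 and 5872 CPM with the inhibitor and 4843 to 5338 CPM (median 5168) with the siRNAs (0.06 ± 0.06, adjusted p = 0.446), with overlapping values. It was higher than TM siCtrl by 1.74 ± 0.07 with the inhibitor and by 1.68 ± 0.07 with the siRNAs. Its difference between the arms was -0.00077 without replicate 4 of any group. HSP90B1, the gene of GRP94, differed by 0.11 ± 0.05 (adjusted p = 0.0564, called in 9 alternatives) and was above TM siCtrl by 0.98 ± 0.06 and 0.87 ± 0.05 in the same order. CRELD2 differed by 0.08 ± 0.04 (adjusted p = 0.143). CALR, the lectin chaperone calreticulin, was called at 0.11 ± 0.03, but not without TM PERKi siCtrl replicate 3 (0.09, adjusted p = 0.0616). The ER stress response element was present in 5 of 27 promoters matched from this list (HSPA5, HSP90B1, CRELD2, CALR and CANX). It thus lay in HSPA5, 0.74 apart, in CALR, called at 0.11, and in HSP90B1 and CRELD2, not called in the main fit. XBP1, outside this list, carried the element too and was higher by 0.50.

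Of 30 genes of ER-associated degradation, 21 were higher and 3 lower (median 0.22). HERPUD1 stood at 2592, 2697, 2605 and 2645 CPM in the inhibitor libraries and 1528 to 1828 CPM (median 1721) in the siPERK libraries (0.64 ± 0.05, adjusted p = 3.45e-12). EDEM1, which takes misfolded glycoproteins to disposal, differed by 0.62 ± 0.05 and VIMP, a partner of the derlins, by 0.55 ± 0.04. Of 51 genes of ER-Golgi transport and translocation, 30 were higher and 5 lower (median 0.19), with 3 lower when TM PERKi siCtrl replicate 3 was left out. The SNARE gene BET1 (0.67 ± 0.05), the COPII coat gene SEC23A (0.63 ± 0.06) and the COPI coat gene COPB1 (0.58 ± 0.04) were the furthest apart. BET1 and SEC23A differed between the oligos as well, being lower in TM siPERK-1, with SEC23A at 303, 296, 286 and 251 CPM with the inhibitor, 153, 169, 146 and 153 CPM with siPERK-1 and 218, 224, 219.9 and 208 CPM with siPERK-3. TGACGTGG, letters known to be bound by XBP1 and ATF6, was found on either strand in 8 of 44 promoters matched from this list, SEC23A and COPB1 among them, and in 217 of all promoters (0.795%).

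The N-glycosylation and hexosamine genes were split, 12 higher and 9 lower of 39 (median 0.06), beside 25.8% higher and 26.1% lower of all genes tested. GFPT1, which starts hexosamine synthesis, was higher (0.70 ± 0.07, at 980.4 to 1131 CPM with the inhibitor and 572 to 734 CPM with the siRNAs) and so was DPM1 of dolichol-phosphate-mannose synthesis (0.51 ± 0.05), while PRKCSH, a subunit of glucosidase II, was lower (-0.51 ± 0.05). Among 13 genes of the other stress sensors, 5 were higher and 3 lower (median 0.06). ERN1, the gene of IRE1, stood at 83.1, 90.5, 90.3 and 87.8 CPM with the inhibitor and 38.5 to 50.7 CPM (median 45.8) with the siRNAs (0.96 ± 0.06, adjusted p = 7.14e-15). Against TM siCtrl at 67.5, 68.6, 69.8 and 69.5 CPM it was higher with the inhibitor (0.35 ± 0.07) and lower with the siRNAs (-0.61 ± 0.06). XBP1 followed the same order (0.50 ± 0.04 between the arms, 0.24 ± 0.04 and -0.27 ± 0.04 against TM siCtrl). BLOC1S1, whose message is cut by active IRE1, was lower with the inhibitor (-0.59 ± 0.12), at 2.86 to 3.56 CPM against 4.18 to 5.54 CPM with the siRNAs. It stood at 7.44, 7.79, 7.7 and 5.98 CPM in TM siCtrl, above every library of both arms. In DMSO siCtrl it stood at 12.3, 13.2, 14.9 and 13.2 CPM. Cutting by IRE1 was not tested. Between the arms BLOC1S1 was lower where ERN1 and XBP1 were higher, but TM siCtrl did not lie between the arms as for those genes. The part of its partly shared locus BLOC1S1-RDH5 in these counts was not tested.

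**Figure D3:**
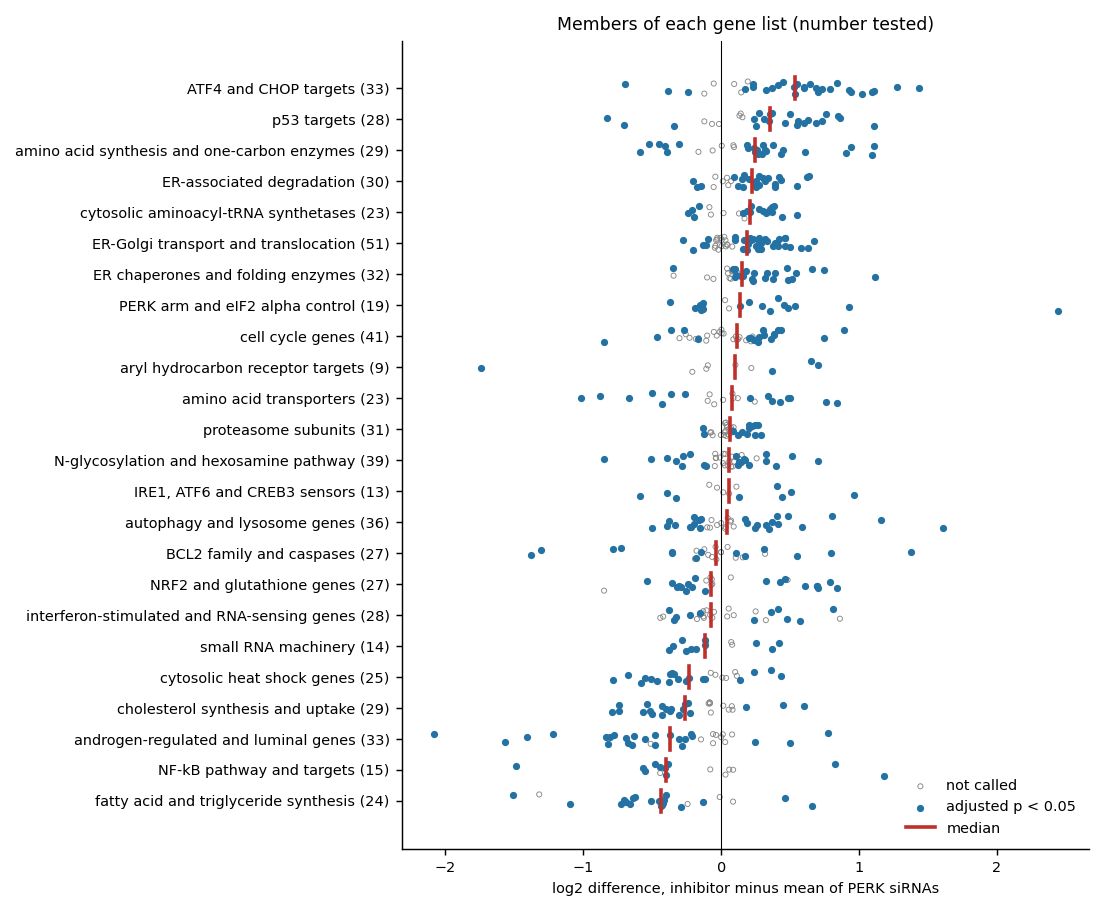
Log2 differences, inhibitor minus the mean of the PERK siRNA groups (horizontal axis), of the tested members of each gene list with at least 8 tested members (rows, number in brackets). Filled points were called, open points were not, and red bars are medians, which run from 0.54 for the ATF4 and CHOP targets to -0.44 for fatty acid and triglyceride synthesis.

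Among single genes that passed against both oligos, with no overlap and a mean of at least 1 on the log2 CPM scale, EIF2AK3 headed the 10 highest. PLCG2, a phospholipase of immune receptors, came next only through 1 library, at 3.47, 4.5, 37.5 and 3.51 CPM in the inhibitor libraries and 1.41 to 3.32 CPM (median 2.37) in the siPERK libraries. Its difference of 2.39 ± 0.50 was 0.65 without TM PERKi siCtrl replicate 3 (adjusted p = 0.0068). GCNT3, which branches mucin-type sugar chains, stood at 10.9, 11.6, 10.5 and 7.77 CPM with the inhibitor and 1.06 to 3.28 CPM (median 2) with the siRNAs (2.32 ± 0.19). HOPX, a small homeodomain protein, stood at 21.8, 20.3, 23.3 and 14.4 CPM and 3.55 to 6.76 CPM (median 5.2) in the same order (1.91 ± 0.13). GPR1, a receptor for chemerin, stood at 33.1, 29.1, 37.5 and 34.4 CPM and 6.43 to 11.5 CPM (median 9.51) in that order, a difference of 1.85 ± 0.13.

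For HOPX and GPR1 the inhibitor was not called against TM siCtrl (0.31 ± 0.13 and 0.29 ± 0.13), whereas the siRNAs were (-1.60 ± 0.13 and -1.56 ± 0.13). The other 5 were ROCK1P1 (2.13 ± 0.15), FLRT1 (1.87 ± 0.11), CPXM2 (1.87 ± 0.16), LAMB4 (1.84 ± 0.17) and GPR115 (1.81 ± 0.17). ROCK1P1 is a partial copy of ROCK1, and reads of the copies cannot be told apart with certainty. FLRT1 is a cell adhesion protein, LAMB4 a laminin chain and GPR115 an adhesion receptor.

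At the low end, OR51E1, an odorant receptor made in prostate, had 2, 6, 6 and 16 counts (0.183, 0.51, 0.408 and 1.2 CPM) in the inhibitor libraries and 2.38 to 5.87 CPM (median 3.75) in the siPERK libraries. Its difference of -2.76 ± 0.34 rests on these few counts, and it was -3.41 without TM PERKi siCtrl replicate 4. TMEFF2, a membrane protein of prostate epithelium, stood at 16.8, 17, 12.9 and 33.7 CPM with the inhibitor and 69.4 to 117 CPM (median 82.2) with the siRNAs (-2.10 ± 0.23). Against TM siCtrl the inhibitor group was not called (-0.10 ± 0.28), and the siRNA groups were higher (2.00 ± 0.22). OR51E1 had that pattern too, with -0.60 ± 0.49 uncalled and 2.16 ± 0.29 called.

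The steroid-conjugating enzyme genes UGT2B11 (-2.31 ± 0.42) and UGT2B15 (-1.75 ± 0.29) were both lower with the inhibitor; they belong to a family of near-identical genes, so the split of reads between them is uncertain. KLK3 is described below. The rest were TM4SF1 (-2.23 ± 0.23), a surface protein of tumour cells that overlaps TM4SF1-AS1, APLN (-1.92 ± 0.20), RTN4RL1 (-1.89 ± 0.20), a relative of the Nogo receptor, FAM65B (-1.78 ± 0.16), an inhibitor of RhoA, and MEX3A (-1.74 ± 0.12), an RNA-binding protein. MEX3A was tight, at 5.48, 5.1, 5.3 and 5.68 CPM with the inhibitor and 15.7 to 21.4 CPM (median 17.7) with the siRNAs.

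**Figure D4:**
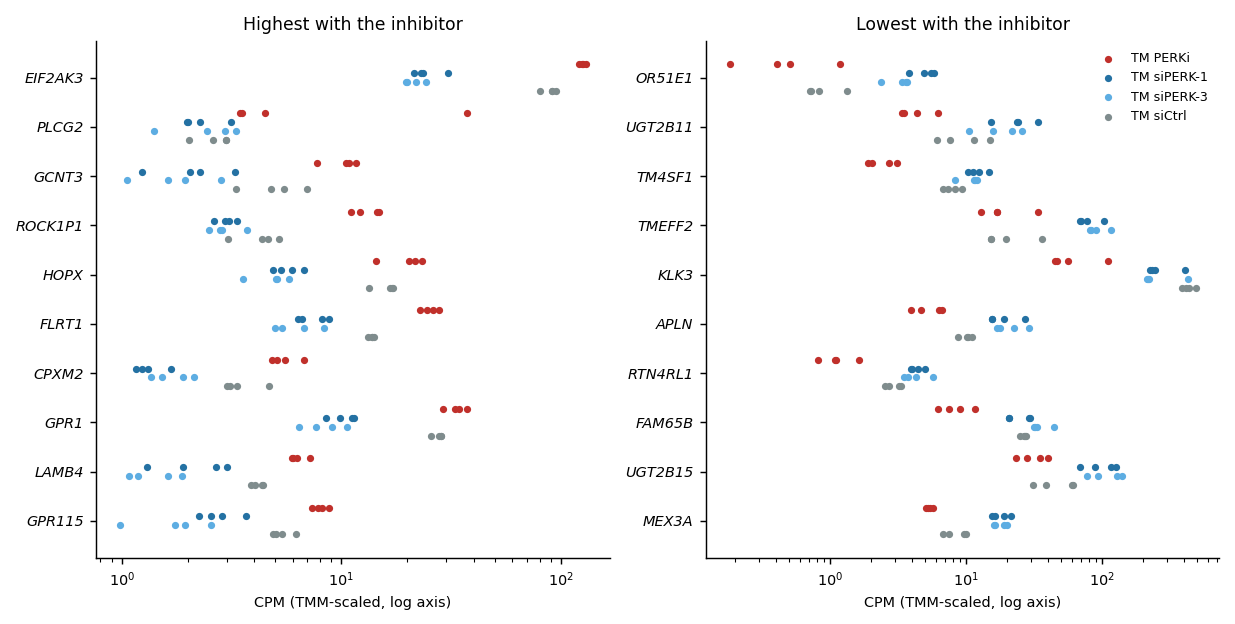
TMM-scaled CPM (horizontal log axis) of the 10 highest (left) and 10 lowest (right) genes by difference between inhibitor and PERK siRNAs; each point is a library of TM PERKi siCtrl, TM siPERK-1, TM siPERK-3 or TM siCtrl. Inhibitor and siPERK points do not overlap for any gene shown, which the naming rule required, and PLCG2 has 1 inhibitor library at 37.5 CPM.

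Some genes were called on opposite sides of TM siCtrl, the direction being required by the naming rule. Higher with the inhibitor and lower with each oligo were GCNT3 (0.99 ± 0.20 with the inhibitor and -1.33 ± 0.21 with the siRNAs), FLRT1 (0.88 ± 0.12 and -0.99 ± 0.12), FIBIN (0.77 ± 0.20 and -1.04 ± 0.19) and IL20RB, a cytokine receptor subunit (0.76 ± 0.18 and -0.83 ± 0.18). FLRT1 showed the middle position of TM siCtrl clearly, at 24.7, 26, 27.8 and 22.7 CPM with the inhibitor, 4.99 to 8.82 CPM with the siRNAs and 14.1, 13.2, 13.8 and 13.8 CPM in TM siCtrl. Lower with the inhibitor and higher with each oligo were APLN, the peptide ligand apelin (-0.91 ± 0.24 and 1.01 ± 0.17), TUBA1A, an alpha tubulin with close relatives (-0.81 ± 0.19 and 0.86 ± 0.14), the orphan receptor gene GPR158 (-0.79 ± 0.20 and 0.86 ± 0.16) and the ephrin receptor gene EPHA7 (-0.74 ± 0.17 and 0.83 ± 0.13). TUBA1A stood at 2.56, 2.63, 3.06 and 2.84 CPM with the inhibitor, 7.36 to 10.1 CPM with the siRNAs and 4.7, 4.99, 3.41 and 6.38 CPM in TM siCtrl.

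Androgen-regulated and luminal genes were lower with the inhibitor than with the PERK siRNAs. Of 33 tested, 21 were lower and 3 higher (median -0.37), and 17 of the 21 passed against each oligo singly. KLK3 (hg19 chr19:51358171-51364020), the gene of prostate-specific antigen, stood at 45, 56.7, 46.5 and 109.9 CPM in the inhibitor libraries, 224, 246, 235 and 410.0 CPM in TM siPERK-1 and 218, 214, 221 and 431 CPM in TM siPERK-3. Replicate 4 was the highest library of each of these groups, and the groups did not overlap, which the naming rule required. The difference was -2.09 ± 0.24 (adjusted p = 2.04e-07), or -2.20 without replicate 4 of any group. TM siCtrl stood at 434, 411, 492 and 389 CPM. KLK3 was lower than there with the inhibitor (-2.74 ± 0.27) and with the siRNAs (-0.65 ± 0.20), although replicate 4 of both siPERK groups reached the TM siCtrl values.

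TMPRSS2, an androgen-induced protease, stood at 73.5, 79.5, 64.6 and 97.7 CPM in the inhibitor libraries and 207 to 283 CPM (median 224) in the siPERK libraries (-1.57 ± 0.13, adjusted p = 4.87e-10). HOXB13, a homeobox factor of prostate, stood at 70.9, 72, 61.9 and 89.2 CPM and 174 to 238 CPM (median 185) in the same order (-1.41 ± 0.09). Neither was called for the siRNAs against TM siCtrl (0.27 ± 0.11 and 0.18 ± 0.09), while both were for the inhibitor (-1.30 ± 0.14 and -1.23 ± 0.10). Over the list, 19 of 33 were lower and 5 higher with the inhibitor against TM siCtrl (median -0.28), and 7 were lower and 6 higher with the siRNAs (median 0.02).

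PMEPA1, a brake on TGF-β and androgen signalling, stood at 26.9, 27.2, 25.9 and 35.8 CPM with the inhibitor and 57.8 to 86.2 CPM (median 62.6) with the siRNAs, with no overlap (-1.22 ± 0.13, adjusted p = 2.59e-08). Also lower were KLK2 (-0.81 ± 0.13), a close relative of KLK3, and FOXA1 (-0.63), a pioneer factor of prostate epithelium, while EAF2 was higher by 0.77. The summed level of the 10 luminal markers was 2700 to 3100 CPM in the inhibitor libraries, 3440 to 3890 CPM in TM siPERK-1 and 3340 to 3940 CPM in TM siPERK-3, against 3490 to 3890 CPM in TM siCtrl. Fewer cells of a kind and less RNA per cell cannot be told apart in such bulk libraries.

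Lipid synthesis genes were lower with the inhibitor and, for many of them, also differed between the oligos. Of 24 genes of fatty acid and triglyceride synthesis, 17 were lower and 2 higher (median -0.44), and 16 passed against each oligo singly. FASN (hg19 chr17:80036214-80056106, minus strand), fatty acid synthase, stood at 387, 378, 373 and 499 CPM in the inhibitor libraries, 939.5, 884, 868 and 1132 CPM in TM siPERK-1 and 1468, 1265, 1289 and 1655 CPM in TM siPERK-3. The 3 groups were apart from each other, with -1.51 ± 0.12 for the inhibitor (adjusted p = 5.17e-10) and -0.57 ± 0.13 between the oligos (adjusted p = 0.0109). TM siCtrl stood at 493, 435, 472 and 584 CPM, so that the siRNAs lay above it (1.23 ± 0.12) and the inhibitor was not called (-0.28 ± 0.13).

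SREBF1, the gene of the factor SREBP1 that drives fatty acid synthesis, stood at 146, 137, 132 and 159.5 CPM with the inhibitor and 272 to 394 CPM (median 293) with the siRNAs (-1.10 ± 0.08), and here the oligos were not called apart (-0.15 ± 0.09). It overlaps RAI1. Against TM siCtrl it was lower with the inhibitor (-0.70 ± 0.09) and higher with the siRNAs (0.40 ± 0.08). ELOVL6, a fatty acid elongase (-0.71 ± 0.10), and SCD, a desaturase (-0.66), were lower, whereas ACACB (0.66) and ME1 (0.46) were the 2 higher members.

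Of 29 genes of cholesterol synthesis and uptake, 17 were lower and 3 higher (median -0.27), but 10 of the 17 passed against each oligo singly and 19 of the 29 were called between the oligos. LSS, lanosterol synthase, stood at 72.9, 70.1, 71.6 and 88.2 CPM with the inhibitor, 104, 102, 105 and 132 CPM with siPERK-1 and 159, 142, 148 and 175 CPM with siPERK-3 (-0.79 ± 0.12, and -0.50 ± 0.13 between the oligos). INSIG1, which holds back the sterol sensor, stood at 176, 168, 162 and 164 CPM, 228, 231, 218 and 255 CPM and 355, 328, 320.3 and 343 CPM in the same order (-0.74 ± 0.14, and -0.53 ± 0.15 between the oligos). SQLE, squalene epoxidase, had the same order of groups (-0.54 ± 0.08). NPC1, a lysosomal cholesterol exporter, was lower (-0.74 ± 0.10) with no call between the oligos (0.05 ± 0.11), and it overlaps C18orf8. Against TM siCtrl, 17 of the 29 were higher and 2 lower with the inhibitor (median 0.27), and 22 higher and 2 lower with the siRNAs (median 0.61).

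**Figure D5:**
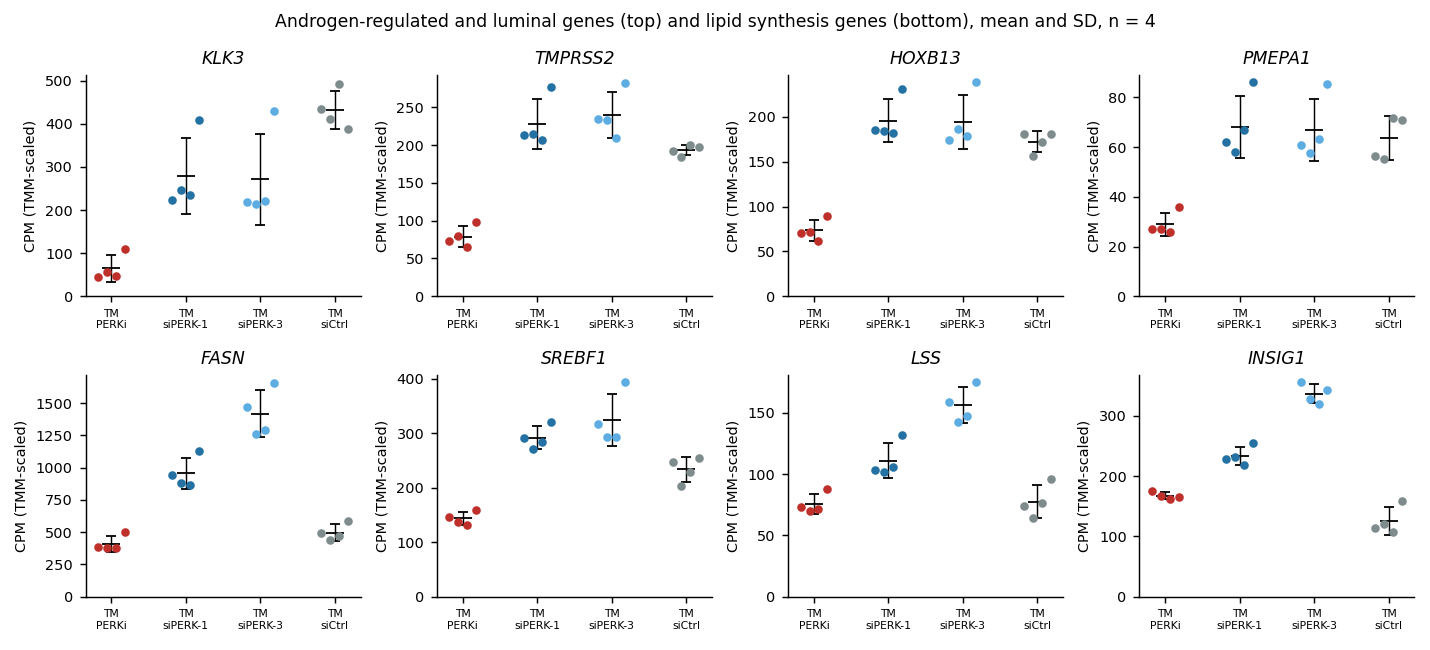
TMM-scaled CPM (vertical axes, from 0) of KLK3, TMPRSS2, HOXB13 and PMEPA1 (top) and of FASN, SREBF1, LSS and INSIG1 (bottom) in each library of TM PERKi siCtrl, TM siPERK-1, TM siPERK-3 and TM siCtrl; points are libraries, bars the mean and SD of 4. The inhibitor group is the lowest for the top row, and for FASN, LSS and INSIG1 TM siPERK-3 lies above TM siPERK-1.

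Targets of p53, which LNCaP cells keep in normal form, were mostly higher with the inhibitor. Of 28 tested, 19 were higher and 3 lower (median 0.35). GADD45A, a stress-induced growth arrest gene, stood at 95.5 to 106 CPM with the inhibitor and 35.1 to 60.8 CPM with the siRNAs (1.11 ± 0.09). DDB2 (0.86 ± 0.07), a sensor of DNA damage, and SPATA18 (0.85 ± 0.11), of mitochondrial quality control, followed. CDKN1A, the cell cycle inhibitor p21, stood at 487, 453, 432 and 303 CPM with the inhibitor and 203 to 284 CPM (median 276) with the siRNAs (0.69 ± 0.14, adjusted p = 0.000311). Replicate 4 was the lowest library of CDKN1A in all 3 groups, and the inhibitor values still lay above the siPERK values. MDM2, which degrades p53, differed by 0.55 ± 0.09, while TP53INP1 (-0.83) and the kinase genes PLK2 (-0.71) and PLK3 (-0.34) were the lower members. CDKN1A, TNFRSF10B, SESN2 and BBC3 stand on the list of ATF4 and CHOP targets too.

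Of 41 cell cycle genes, 14 were higher and 5 lower (median 0.11), beside 25.8% higher and 26.1% lower of all genes tested. The count lower was 8 without replicate 4 of any group and 9 in the fit blocked by replicate number. It was 3 when TM PERKi siCtrl replicate 1 or 3 or TM siPERK-1 replicate 4 was left out. The replication factor genes CDC45 (0.89 ± 0.11, at 17.4 to 24.9 CPM with the inhibitor and 9.17 to 15.3 CPM with the siRNAs) and CDC6 (0.74 ± 0.05) were higher, and CCND1, cyclin D1, was lower (-0.47 ± 0.06). The proliferation marker gene MKI67 was not called (-0.03). Of 31 proteasome subunit genes, 11 were higher and 2 lower (median 0.06), beside the same shares of all genes tested. The count lower was 1 when TM PERKi siCtrl replicate 1 or 2 was left out. PSMC6 (0.29 ± 0.05), PSMD12 (0.27 ± 0.04) and PSMC2 (0.24 ± 0.04) were the furthest apart without overlap.

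Cytosolic heat shock genes were mostly lower with the inhibitor, 15 lower and 4 higher of 25 (median -0.24), of which 7 were lower against each oligo singly, and 9 of the 25 were called between the oligos. FKBP4 (-0.56 ± 0.04) and HSP90AB1 (-0.38 ± 0.04), a co-chaperone and a form of HSP90, were lower. HSPA9, which despite its place on this list is the mitochondrial HSP70, was higher (0.36 ± 0.04). Against TM siCtrl both arms had more higher than lower members, 12 and 3 with the inhibitor and 15 and 2 with the siRNAs.

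Of 15 genes of the NF-κB pathway, 8 were lower and 2 higher (median -0.40), and 4 were called between the oligos. NFKBIA, the inhibitor of NF-κB that is also its target, stood at 55.5, 49.4, 47.9 and 49.8 CPM with the inhibitor and 61.1 to 91.5 CPM (median 67.4) with the siRNAs (-0.48 ± 0.06). MAP3K14, the kinase of the non-canonical branch, was lower too (-0.55 ± 0.08), whereas BIRC2, a ubiquitin ligase that degrades that kinase, was higher (0.83 ± 0.05), at 118 to 127 CPM with the inhibitor and 56.1 to 85.3 CPM with the siRNAs. TNFAIP2 (-1.49 ± 0.33) and CXCL8 (1.18 ± 0.35), a chemokine, had at most 33 counts in any of these 12 libraries and overlapped between the groups. Against TM siCtrl, 8 of the 15 were higher and 0 lower with the inhibitor, and 12 higher and 2 lower with the siRNAs.

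Because only the siRNA arms carried an oligo against a cellular message, genes of small RNA handling and of RNA sensing were described as well. Of 14 genes of the small RNA machinery, 8 were lower and 3 higher with the inhibitor (median -0.12). AGO2, the slicing Argonaute, stood at 17.3 to 19.3 CPM with the inhibitor and 21.9 to 26.2 CPM with the siRNAs (-0.38 ± 0.06), AGO3 was higher (0.37 ± 0.06) and XPO5, the exporter of microRNA precursors, was higher (0.42 ± 0.05). Of 28 interferon-stimulated and RNA-sensing genes, 6 were higher and 5 lower (median -0.07), beside 25.8% higher and 26.1% lower of all genes tested. Without TM PERKi siCtrl replicate 4, 3 were higher. ISG20, an exonuclease, was higher (0.81 ± 0.07), EIF2AK2, the RNA-activated eIF2 kinase, was higher (0.41 ± 0.05), and ISG15, a ubiquitin-like protein, was lower (-0.35 ± 0.10).

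GSK2606414 is known to bind the kinases RIPK1 and KIT besides PERK. RIPK1 was expressed, at 28.3, 29.8, 29.7 and 24.5 CPM with the inhibitor and 24.6 to 27.9 CPM (median 27.2) with the siRNAs, and was not called (0.06 ± 0.06, adjusted p = 0.407). KIT had 0 counts in all 16 libraries of these 4 groups; 3 counts, the limit that a count of 0 allows, equal 0.259 CPM in the smallest library, which covers counting error only. RIPK3 had 1 count in all, in TM siPERK-3, and was not tested. Of the other genes of that list tested, RIPK2 was higher by 0.22 and MLKL was not called (-0.39).

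The part of other cell types in the differences was not tested, and the sums of their markers are given as measured. The 4 basal markers summed to at most 0.604 CPM in an inhibitor library and at most 0.715 CPM in a siPERK library, and the 6 leukocyte markers to at most 0.431 and 0.226 CPM. The 5 neuroendocrine markers summed to 1.38 to 3.45 CPM with the inhibitor, 4.0 to 6.98 CPM in TM siPERK-1 and 1.68 to 2.69 CPM in TM siPERK-3. Nearly all of this came from SYP, which with the inhibitor lay under TM siPERK-1 (4.0 to 6.9 CPM) but overlapped TM siPERK-3 (1.6 to 2.61 CPM). Of the wider list below, 3 genes passed against each oligo singly. All 4 tested genes of the wider neuroendocrine list were lower with the inhibitor (median -0.68), ENO2, a neuronal enolase, among them (-1.21 ± 0.17, 7.62 to 15 CPM with the inhibitor and 22.3 to 31.3 CPM with the siRNAs) and TUBB3, a neuronal tubulin (-0.83 ± 0.12), and 2 of the 4 were called without TM PERKi siCtrl replicate 1. The 5 fibroblast markers summed to 29.4 to 39.7 CPM with the inhibitor, 28.4 to 37.0 CPM in TM siPERK-1 and 32.8 to 36.8 CPM in TM siPERK-3, nearly all from the collagen gene COL1A1 (28.6 to 38.7 CPM with the inhibitor), while the other 4 stayed under 1 CPM. The 3 endothelial markers summed to 9.77 to 11.2 CPM with the inhibitor, 12.4 to 13.1 CPM in TM siPERK-1 and 14.6 to 18.3 CPM in TM siPERK-3, mostly from VWF. Of 5 tested fibroblast and endothelial genes, VIM (-1.07 ± 0.15) and VWF (-0.54 ± 0.10) were lower and PECAM1 (0.95) higher. VWF differed between the oligos and VIM overlaps VIM-AS1. Of 3 tested basal genes 1 was higher, DST (0.58), and of 2 tested leukocyte genes 1 was lower, CD68 (-0.34), a call that 6 alternatives did not keep.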

How the data were processed

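The authors deposited raw counts of reads per gene in 6 tables of 25370 lines, joined here by gene name. TM siCtrl columns recurred in them with 0 differing values and were used once, and 1 unnamed line with 0 counts was left out. Per the submitters' processing notes, the tools were DESeq2 1.10.1, featureCounts 1.5.0-p1 and TopHat2 2.1.0, and the build hg19. The library kit kept strand, per the labels' protocols, but the strand setting of the counting is not stated in these notes, so overlapping genes and near-identical families are uncertain.

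Counts of all 28 libraries entered 1 group-means fit in edgeR 4.0.16 (R 4.3.3; TMM, filterByExpr at 10 counts, total 15, robust quasi-likelihood F-test, two-sided, Benjamini-Hochberg over 14314 genes), after the procedure was tested on simulated data. SE is the absolute log2 difference divided by the square root of F. Over 24 pairs of libraries within the compared and control groups, a chi-square per gene of 1.81 to 6.57 exceeded sampling noise, so no library was counted as a duplicate.

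Named genes followed a rule: PERK pathway genes, the 10 highest and 10 lowest differences and 4 each way on opposite sides of TM siCtrl, and up to 3 called members without overlap of each of 29 gene lists. The members and lists were chosen with earlier results of these data known. Other list members were chosen after their values were seen, among them 18 with levels (FAM129A, TRIB3, ASNS, PDIA4, HSP90B1, CRELD2, CALR, SDF2L1, KLK2, PMEPA1, GOT1, SQLE, TNFAIP2, CXCL8, CASP4, CDKN1A, MDM2, GDF15). Single values of some list members are not reported here. Alternatives were DESeq2 1.42.0, limma-voom 3.58.1, other scalings, filters, fits and left-out libraries. Leaving replicate 4 out of all groups was chosen after seeing the data. Promoters were matched by gene symbol with Python 3.11.15.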

Additional observations from a re-analysis of the deposited data

Results flagged for a closer look

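Among 351 sets of 4 libraries (117 genes in 3 groups), 31 held 1 library far from the other 3 (8.83%), where chance flags about 1 in 20 sets. Of these libraries 24 were replicate 4, 4 replicate 3, 2 replicate 2 and 1 replicate 1. The values are given without an explanation.

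In the inhibitor group, PLCG2 was far above the rest in replicate 3 (37.5 CPM), and GARS was low in replicate 1 (1120 CPM). In replicate 4 of that group, FASN (499 CPM), LSS (88.2 CPM) and PMEPA1 (35.8 CPM) were high, and GFPT1 (980 CPM), MAP1LC3B (282 CPM) and GOT1 (381 CPM) were low.

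In TM siPERK-1, XBP1 (239 CPM) and SLC7A11 (764 CPM) were high in replicate 2. In replicate 4, KLK3 (410 CPM), DNAJB9 (185 CPM), LSS (132 CPM), TMPRSS2 (277 CPM), HOXB13 (232 CPM) and SQLE (154 CPM) were high, and GARS (741 CPM), MAP1LC3B (118 CPM) and CDKN1A (210 CPM) were low.

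In TM siPERK-3, TM4SF1 was low (8.37 CPM) and WIPI1 (110 CPM) and CASP4 (30.7 CPM) were high in replicate 3. In replicate 4, KLK3 (431 CPM), FAM65B (44.6 CPM) and CCND1 (195 CPM) were high, and COPB1 (339 CPM), DPM1 (74.1 CPM), HSPA9 (861 CPM), HSP90B1 (19500 CPM), CALR (4900 CPM) and CDKN1A (203 CPM) were low.

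The oligos differed from each other for 16 of the 117 genes, by edgeR's adjusted p for siPERK-1 minus siPERK-3. Higher in TM siPERK-1 were FKBP14 (0.283) and LAMP3 (0.73). Lower in TM siPERK-1 were the lipid genes ELOVL6 (-0.575), FASN (-0.57), INSIG1 (-0.531), LSS (-0.497) and SQLE (-0.384). Also lower were FAM65B (-0.507), SEC23A (-0.487), BIRC2 (-0.459), VWF (-0.407), MTHFD2 (-0.301), BET1 (-0.283), NFKBIA (-0.254), XPO5 (-0.234) and PSMD12 (-0.183).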

How the results depend on the processing

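Leaving out single libraries gave 6653 to 7396 called genes between inhibitor and PERK siRNAs (main 7428), 4764 to 5346 under the stricter call against each oligo, 4408 to 4965 for the inhibitor against TM siCtrl, 3747 to 4400 for the siRNAs against TM siCtrl and 392 to 627 between the oligos (main 677). The oligo count moved most, to 451 without TM siPERK-1 replicate 1, 416 without TM siPERK-1 replicate 3 and 392 without TM siPERK-3 replicate 1. Other settings gave 7197 to 7969, 5125 to 5930, 4738 to 5818, 4136 to 5304 and 565 to 1195 genes in the same order. Upper-quartile scaling split the oligo calls into 406 higher and 269 lower in TM siPERK-1 (main 321 and 356), and DESeq2 size factors split the main calls into 3902 higher and 3508 lower. Without replicate 4 of any group there were 846 oligo calls, and 27 ATF4 and CHOP targets, 19 ER chaperones and 19 p53 targets were higher, and 21 androgen, 17 fatty acid and 16 cholesterol genes lower.

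With the replicate number as a block, 7969 genes were called between inhibitor and siRNAs and 1195 between the oligos (550 higher and 645 lower in TM siPERK-1). Of 12 same-numbered pairs of libraries among the 3 groups compared, 4 had deviations correlated over 0.1 (0.0617 to 0.270), and 12 of 12 correlated best with their own number, a hint from the data. Of 12 such pairs with TM siCtrl, 5 were over 0.1 (0.0575 to 0.214) and 11 of 12 correlated best with their own number, TM siPERK-3 replicate 1 doing so with replicate 2. The labels do not say what a number marks.

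Of 2455 gene values, 2442 kept direction and call, 1 lost the call (CALR), 1 changed sign without being called (PDIA4, -0.00077 without replicate 4 of any group) and 11 gained the call (ATF4 in 2 settings and HSP90B1 in 9, adjusted p = 0.0102 to 0.0492). Of 1218 list counts, 26 moved by over 1.5 times, in 7 lists' counts: genes lower for ER chaperones, ER-Golgi transport, cell cycle, proteasome, leukocyte and neuroendocrine lists, and genes higher for interferon-stimulated genes. Genes higher numbered 23 to 27 for ATF4 and CHOP targets, 15 to 23 for ER chaperones and 18 to 21 for p53 targets, and genes lower 20 to 22 for androgen, 15 to 17 for fatty acid and 16 to 18 for cholesterol genes. DESeq2 gave PLCG2 no adjusted p. Depth limits FGF21, OR51E1, CXCL8, TNFAIP2, CYP1A1, HRK, BCAT1 and RTN4RL1 among others, and the message counts measure neither kinase activity nor protein.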

Other observations

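Autophagy and lysosome genes were split in the same comparison, with 14 higher and 11 lower of 36 (median 0.04). Over all genes tested, 25.8% were higher and 26.1% lower. LAMP3, MAP1LC3B and WIPI1 were the furthest up. LAMP3, a stress-induced lysosomal membrane protein, stood at 13.7, 13.4, 18.2 and 11.5 CPM in the inhibitor libraries, 6.71, 7.03, 6.27 and 3.94 CPM in TM siPERK-1 and 2.96, 3.58, 4.31 and 3.68 CPM in TM siPERK-3. LAMP3 was higher with the inhibitor by 1.60 ± 0.15, and against TM siCtrl it was lower with the siRNAs (-1.65 ± 0.14) and not called with the inhibitor (-0.04 ± 0.15). MAP1LC3B, the membrane mark of autophagosomes, stood at 317, 324, 324 and 282 CPM with the inhibitor and 109.9 to 159 CPM (median 146) with the siRNAs (1.16 ± 0.09). WIPI1, an early autophagosome factor, differed by 0.81 ± 0.05. Among the lower members were the lysosomal membrane gene LAMP1 (-0.33) and TFEB (-0.38), a factor that drives lysosome genes.

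Genes of the BCL2 family and caspases were split as well, 6 higher and 8 lower of 27 (median -0.04), beside 25.8% higher and 26.1% lower of all genes tested. The pro-death genes BOK (-1.38 ± 0.13, overlapping BOK-AS1), BMF (-1.31 ± 0.14) and BID (-0.79) were lower, while CASP4, an inflammatory caspase linked to ER stress (0.80 ± 0.07), and PMAIP1, the gene of NOXA (0.55), were higher. BMF stood at 4.84, 4.33, 3.81 and 4.26 CPM with the inhibitor and 8.78 to 14 CPM (median 10.5) with the siRNAs. HRK was higher (1.38 ± 0.28) at low levels, 0.914 to 1.45 CPM with the inhibitor and 0.219 to 0.615 CPM with the siRNAs.

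NRF2 is a factor that PERK can phosphorylate. Of 27 NRF2 and glutathione genes, 9 were higher and 10 lower (median -0.07). Not all of them are NRF2 targets, and CHAC1, described above, is among them. The gene of NRF2, NFE2L2, was higher with the inhibitor (0.70 ± 0.06), as were the target genes HMOX1 (0.70) and GCLM (0.61). TXNRD1 (-0.21) was lower and NQO1 was not called (-0.11). Of 9 aryl hydrocarbon receptor genes, 3 were higher and 1 lower (median 0.10). The receptor gene AHR was higher (0.65 ± 0.12), and CYP1A1, the enzyme gene it induces, was the lower one (-1.74 ± 0.43). CYP1A1 stood at 0.823, 0.595, 0.34 and 1.49 CPM with the inhibitor and 2.03 to 3.71 CPM (median 2.82) with the siRNAs. The inhibitor values rest on 9, 7, 5 and 20 counts.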
